A study of Mus musculus with 6 samples.

Results

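The endoplasmic reticulum (ER) folding, ER-associated degradation (ERAD) and unfolded protein response genes described here are 32 named genes, taken from 19938 genes measured on the array. They were chosen by name for their function, without the targets of the transcription factor ATF4, and all 32 had a probe set annotated with their symbol alone. They fall into 8 roles, from lumenal chaperones to the stress sensors and the translocon. The cells were lung endothelial cells with a C57BL/6 background, stably transfected with a hygromycin-resistance vector that carried either full-length mouse L1CAM or no insert. L1CAM is a transmembrane adhesion molecule of the immunoglobulin superfamily. Cultures were grown for 4 days to confluence in medium with 20% serum, and total RNA from 3 control and 3 L1CAM cultures, labelled as biological replicates, was hybridised to 6 Affymetrix arrays. The labels do not say whether each transfectant was a clone or a pool, so the p-values measure the spread between these cultures and may not include the spread between transfections.

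Secreted and membrane proteins fold in the ER with the help of chaperones and disulfide isomerases, and those that fail are drawn back into the cytosol, tagged with ubiquitin and degraded, which is ERAD. When unfolded proteins build up, 3 sensors of the ER membrane start the unfolded protein response. IRE1 (gene Ern1) splices the RNA of the transcription factor XBP1, ATF6 is cut to release a transcription factor, and PERK (gene Eif2ak3) phosphorylates a translation initiation factor, which favours translation of ATF4. ATF6 and spliced XBP1 act on chaperone and ERAD genes through the ER stress response element (ERSE) and related elements. ATF4 acts mainly on genes of amino acid supply and redox balance and is also raised by other kinases that sense amino acid shortage or viral RNA. Endothelial cells rely on this machinery to secrete matrix and clotting proteins.

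RefSeq promoter windows (GRCm38.p6, from 250 bases before to 50 bases after the start) were found for 28 of the 32 genes, and each was searched on both strands for 4 motifs. ERSE, spelled CCAAT, then 9 bases of any kind, then CCACG, was present in 9 of the 28 genes, against 0.137% of the 27025 genes with a window. The element is known from genes of this kind, so these shares are a description and not a test. The sites are printed because ERSE is the element through which ATF6 and XBP1 are known to act. They lie in 7 genes of the folding roles and in the ERAD genes Syvn1 and Derl3. Capitals mark ERSE, which reads in reverse (from CGTGG to ATTGG) in Calr, Creld2, Derl3 and the site of Hsp90b1 nearer to the start, and every sequence is on the strand of its gene.
Hspa5, chr2:34772015-34772053, plus strand: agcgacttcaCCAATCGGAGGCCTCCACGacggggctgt
Hsp90b1, far site, chr10:86705628-86705666, minus strand: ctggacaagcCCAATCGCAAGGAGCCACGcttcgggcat
Hsp90b1, near site, chr10:86705523-86705561, minus strand: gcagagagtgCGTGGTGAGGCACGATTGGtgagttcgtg
Calr, chr8:84847065-84847103, minus strand: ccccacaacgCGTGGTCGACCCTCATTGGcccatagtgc
Canx, chr11:50325790-50325828, minus strand: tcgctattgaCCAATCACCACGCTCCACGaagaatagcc
Pdia6, chr12:17266481-17266519, plus strand: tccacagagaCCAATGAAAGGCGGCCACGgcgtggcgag
Dnajc3, chr14:118937817-118937855, plus strand: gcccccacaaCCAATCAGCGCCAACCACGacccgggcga
Creld2, chr15:88819510-88819548, plus strand: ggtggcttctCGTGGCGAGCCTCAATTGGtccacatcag
Syvn1, chr19:6046522-6046560, plus strand: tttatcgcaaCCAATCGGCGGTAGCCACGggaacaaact
Derl3, chr10:75893232-75893270, plus strand: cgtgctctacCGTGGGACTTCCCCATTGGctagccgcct

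Herpud1, an ERAD gene, had a different promoter. Its window held the shorter element ERSE-II, spelled ATTGG, 1 base of any kind, then CCACG, and the ATF4 element, searched as TGATGNAA. ERSE-II was also found in Dnajb11, just after the start, and in 0.0444% of all genes with a window. The ATF4 element was found in no other of the 28 genes, and in 4.51% of all genes. In the stretch below, from 127 to 27 bases before the start, the first capitals are the ATF4 element read in reverse and the second are ERSE-II, and the motifs do not overlap.
Herpud1, chr8:94386302-94386402, plus strand: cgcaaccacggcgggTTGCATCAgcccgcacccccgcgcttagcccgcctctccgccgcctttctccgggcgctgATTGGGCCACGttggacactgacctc
The XBP1 element, searched as TGACGTGG, was found in 0 of the 28 windows and in 0.714% of all genes. A match is a string of letters and was not tested as a binding site, and a window without a match says only that these letters are not in it.

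Values are log2 expression after RMA, and differences are L1CAM minus control. Called means a Benjamini-Hochberg adjusted p under 0.05 in limma, over all 19938 genes. L1cam itself measured 6.50, 6.77 and 7.31 on the control arrays and 10.49, 10.60 and 10.73 on the L1CAM arrays, so the arrays fell where their labels put them. L1CAM replicate 1 stood apart. Across the genes tested it correlated at 0.9948 and 0.9951 with L1CAM replicates 2 and 3, which correlated at 0.9986 with each other. Its correlation with control replicate 1, at 0.9952, was as high as with the arrays of its own group. It also held the smallest fall of the proliferation genes, with a list mean of -0.53 against -1.82 and -1.72. Of the 15 pan-endothelial markers 1 rose (6.67%, against 6.85% of all genes) and 2 fell (13.3%, against 8.19%). A difference below 0 was seen in 12 of them, and in 8568 of all 19938 genes. In 10 of the markers every L1CAM array lay below every control array, against 16.0% of all genes. Clec14a fell by 1.51 (SE 0.26, 2.84-fold lower, limma adjusted p = 0.0104), Cldn5 fell by 0.22 and Robo4 rose by 0.44, named here after their values were seen. Of these calls, those of Clec14a and Robo4 were lost without control replicate 2, and that of Cldn5 was kept in 1 of the 6 fits that left out an array. The part of these differences in those of the ER genes was not tested. Cdh5, Pecam1, Kdr and Tek measured 11.58 or more in control cells and were not called, while Vwf, at 6.85 in control cells, lay close to the array medians of 6.55 to 6.58. Mean levels were 6.14 to 6.26 over the 12 fibroblast and mural markers, 5.87 to 5.98 over the 9 epithelial and 6.46 to 6.54 over the 10 leukocyte markers, with 0, 0 and 1 called (limma; 1, 1 and 3 at an unadjusted p under 0.05; 0 in each list with an ordinary linear model). In the leukocyte list Cd68, at 12.23 in control cells, and Sdc1, at 10.83 and the 1 gene called (lower), were bright, and the 8 others lay between 4.49 and 6.73. As in any bulk sample, fewer cells of a type and less RNA per cell cannot be told apart.

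In L1CAM cells the ERAD gene Herpud1 rose 1.91-fold, the sensor genes Atf6 and Ern1 and the transcription factor gene Xbp1 rose, and the chaperones and disulfide isomerases were not called. Of the 32 genes 6 rose and 2 fell. The share called was 25.0%, against 15.0% of all genes tested. The rises made up 18.8% of the 32 genes against 6.85% of all genes, and the falls 6.25% against 8.19%. The median difference was 0.02 both over the 32 genes and over all genes. Over the 32 genes it was 0.06 without L1CAM replicate 1 and 0.0007 without L1CAM replicate 3. No list test was made, and these shares are a description. The L1CAM arrays all lay above or all below the control arrays in 15 of the 32 genes (46.9%), against 34.6% of all genes. This held for each of the 8 called genes, which were picked by their call in the same arrays.

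**Figure D1:**
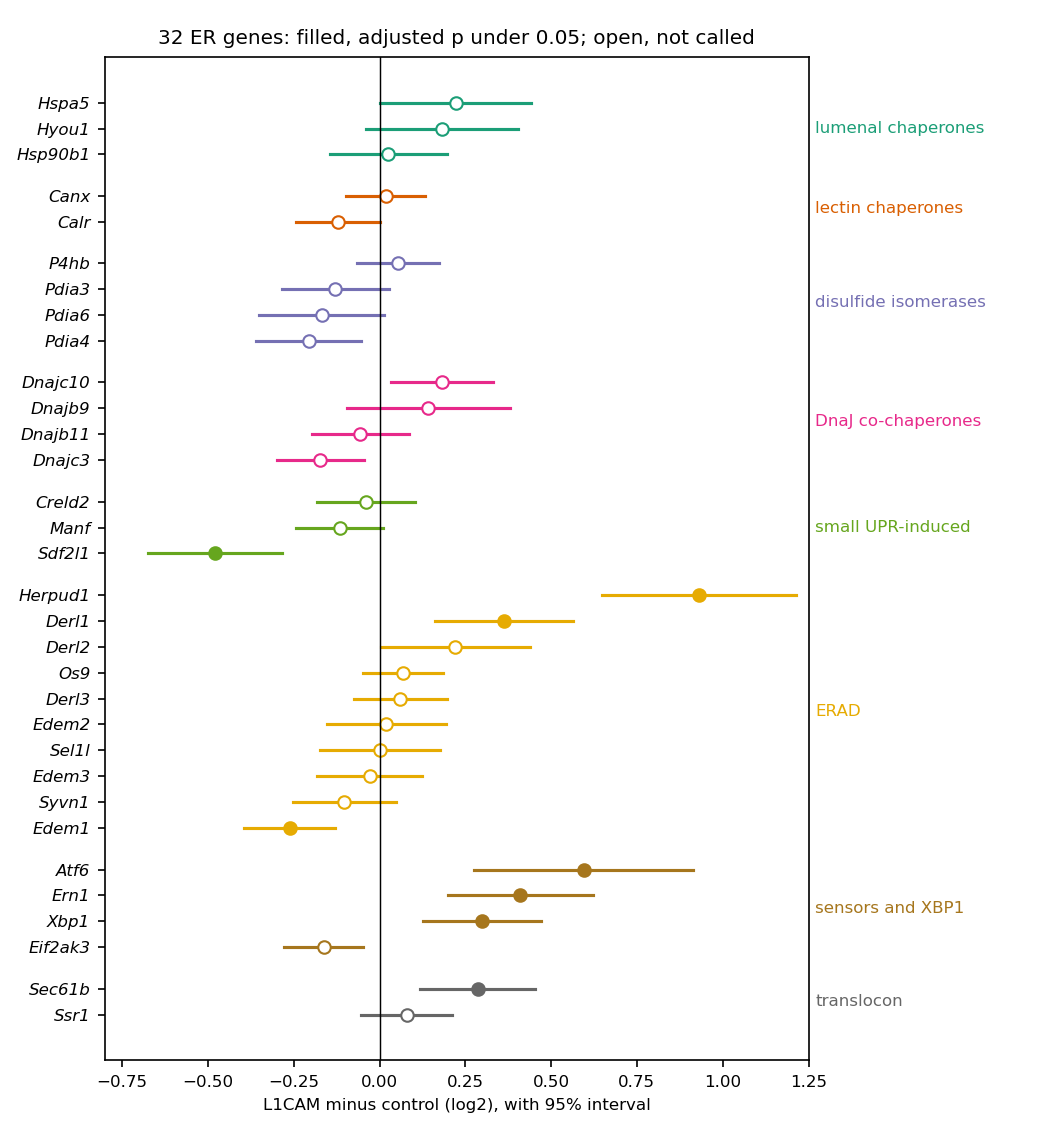
L1CAM minus control difference (log2, horizontal axis) of each of the 32 ER genes, with its 95% interval from limma, grouped by role; filled points were called. Herpud1 lies farthest right at 0.93 and Sdf2l1 farthest left at -0.48, and the 15 uncalled folding genes all have intervals inside -0.36 to 0.44.

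The 3 lumenal chaperones were not called. Hspa5, which encodes BiP, the ER member of the HSP70 family that also holds the sensors inactive, read 12.30, 12.32 and 12.27 on the control arrays. On the L1CAM arrays it read 12.30, 12.58 and 12.67. L1CAM replicate 1 sat within the controls and the other arrays above them, which gave a difference of 0.22 (SE 0.09, 95% interval 0.0017 to 0.44, limma adjusted p = 0.169). Hyou1, a nucleotide exchange factor for BiP, showed the same layout, with 10.41, 10.26 and 10.31 in control cells and 10.30, 10.57 and 10.65 in L1CAM cells (difference 0.18, limma adjusted p = 0.261). Hsp90b1, the ER member of the HSP90 family, differed by 0.03 (95% interval -0.15 to 0.20). Without L1CAM replicate 1, Hspa5 and Hyou1 were called, at 0.33 (limma adjusted p = 0.00449) and 0.28 (limma adjusted p = 0.0165). Across the 15 alternative fits the adjusted p of Hspa5 ran from 0.00449 to 0.418 and that of Hyou1 from 0.0165 to 0.563.

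The lectin chaperones hold newly made glycoproteins while they fold. Calr, calreticulin, read 12.49, 12.51 and 12.46 in control cells against 12.40, 12.32 and 12.38 in L1CAM cells. Its groups did not overlap, but the difference of -0.12 (95% interval -0.24 to 0.0009) was not called, with a limma adjusted p of 0.175. Canx, calnexin, read 12.72, 12.74 and 12.72 against 12.73, 12.74 and 12.77, so the groups overlapped, and differed by 0.02 (95% interval -0.10 to 0.13).

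The 4 disulfide isomerases form and shuffle disulfide bonds, and none was called. Pdia4 read 12.04, 11.98 and 11.93 in control cells and 11.67, 11.82 and 11.83 in L1CAM cells. Every L1CAM array lay below every control array, with a difference of -0.21 (SE 0.07, limma adjusted p = 0.0760). Pdia4 was called lower in 3 of 15 alternatives: without dim probe sets, with an intensity trend and robust prior, and with quantile normalization again. Its adjusted p ran from 0.0348 to 0.294 over the alternatives. Another probe set annotated to Pdia4, at a much lower level (6.91 in control cells), differed by -0.04. Pdia6 differed by -0.17 (95% interval -0.35 to 0.01) and Pdia3, the partner of the lectin chaperones, by -0.13 (95% interval -0.28 to 0.03). P4hb, protein disulfide isomerase itself and a subunit of collagen prolyl hydroxylase, differed by 0.05 (95% interval -0.07 to 0.17).

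Among the co-chaperones, which bring unfolded proteins to BiP, Dnajc10 and Dnajc3 pointed opposite ways. Dnajc10, a disulfide reductase that also serves ERAD, read 10.29, 10.29 and 10.24 in control cells and 10.35, 10.53 and 10.49 in L1CAM cells (difference 0.18, limma adjusted p = 0.102). Dnajc3, which is known to restrain PERK, read 10.26, 10.28 and 10.31 against 10.17, 10.07 and 10.09 (difference -0.17, limma adjusted p = 0.0740). In both genes the groups did not overlap, and both were called without L1CAM replicate 1, at 0.23 and -0.20 (limma adjusted p = 0.0179 and 0.0300). Another probe set annotated to Dnajc3 holds identical values on all 6 arrays. Dnajb9, a co-chaperone that turns IRE1 off and a known XBP1 target, differed by 0.14 (95% interval -0.09 to 0.38) and Dnajb11 by -0.06 (95% interval -0.20 to 0.09).

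Of the small ER proteins induced in the unfolded protein response, Sdf2l1 fell. Sdf2l1, which works with the DnaJ co-chaperones of BiP, read 10.48, 10.48 and 10.50 on the control arrays and 9.94, 9.89 and 10.19 on the L1CAM arrays. The control arrays spanned 0.02 while L1CAM replicate 3 was less low than the others. The difference was -0.48 (SE 0.08), 1.40-fold lower, with a limma adjusted p of 0.0104. The call was lost without control replicate 2 or control replicate 3, and the adjusted p ran from 0.00520 to 0.0877 across the 15 alternatives. Manf, a secreted protein that binds BiP, differed by -0.12 (95% interval -0.24 to 0.01) and Creld2 by -0.04 (95% interval -0.18 to 0.10).

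Taking chaperones, isomerases, co-chaperones and these small proteins as 16 folding genes, 0 rose and 1 fell, with a median difference of -0.05. The fall made up 6.25% of the 16 genes, while 6.85% of all genes were called higher and 8.19% lower. In so few genes these shares lie close together, and the difference between them was not tested. At an unadjusted p under 0.05 the limma fit gave 2 higher and 3 lower, and an ordinary linear model called 0. Without L1CAM replicate 1 the counts were 3 rises and 2 falls, in a fit that called 24.8% of all genes (12.0% higher and 12.9% lower). All 24 of the 32 genes that were not called had a 95% interval inside -0.5 to 0.5.

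ERAD held the largest rise of the 32 genes. Herpud1, an ER membrane protein with a ubiquitin-like domain that helps assemble the ubiquitin ligase complex of ERAD, read 10.72, 10.31 and 10.22 on the control arrays and 11.30, 11.34 and 11.40 on the L1CAM arrays. The L1CAM arrays spanned 0.09 and lay all above the controls, of which replicate 1 was the highest. Its rise of 0.93 (SE 0.12), or 1.91-fold (95% interval 1.57 to 2.32), had a limma adjusted p of 0.00358. Herpud1 was the only one of the 8 called genes that stayed called whichever array was left out. Its adjusted p ran from 0.000636 to 0.0680 across the 15 alternative fits, the highest in an ordinary linear model, the 1 alternative that did not call it.

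Derl1, a derlin of the channel through which ERAD substrates leave the ER, also rose. It read 10.80, 10.62 and 10.70 in control cells and 10.90, 11.16 and 11.14 in L1CAM cells, with replicate 1 the lowest of the L1CAM arrays (difference 0.36, SE 0.09, limma adjusted p = 0.0303). Its adjusted p ran from 0.00204 without L1CAM replicate 1 to 0.132, and the call was lost when any other array was left out. Derl2 read 10.06, 10.08 and 9.98 against 10.06, 10.32 and 10.41. It was not called (0.22, limma adjusted p = 0.165), and was called without L1CAM replicate 1 (0.32, limma adjusted p = 0.00659). Derl3 read 6.41, 6.55 and 6.49 in control cells and 6.51, 6.56 and 6.57 in L1CAM cells, near the array medians, so it was not shown to be above background.

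Edem1, a mannosidase-like protein that marks misfolded glycoproteins for removal, fell. It read 11.17, 11.17 and 11.21 in control cells and 10.84, 10.95 and 10.97 in L1CAM cells (difference -0.26, SE 0.06, 1.20-fold lower, limma adjusted p = 0.0224). Its call, too, was kept without L1CAM replicate 1 and lost without any other array (adjusted p from 0.00943 to 0.0905 over the alternatives). Its relatives Edem2 (0.02) and Edem3 (-0.03) were not called, and the sign of either turned in at least 1 alternative fit. The core of the ligase complex was not called either. Syvn1, the ubiquitin ligase HRD1, differed by -0.10 (95% interval -0.25 to 0.05), and its adaptor Sel1l by 0.0013 (95% interval -0.17 to 0.18). Os9, a lectin that delivers glycoproteins to that complex, read 10.94, 10.90 and 10.92 against 11.02, 10.98 and 10.98, with no overlap but a difference of only 0.07 (limma adjusted p = 0.425).

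**Figure D2:**
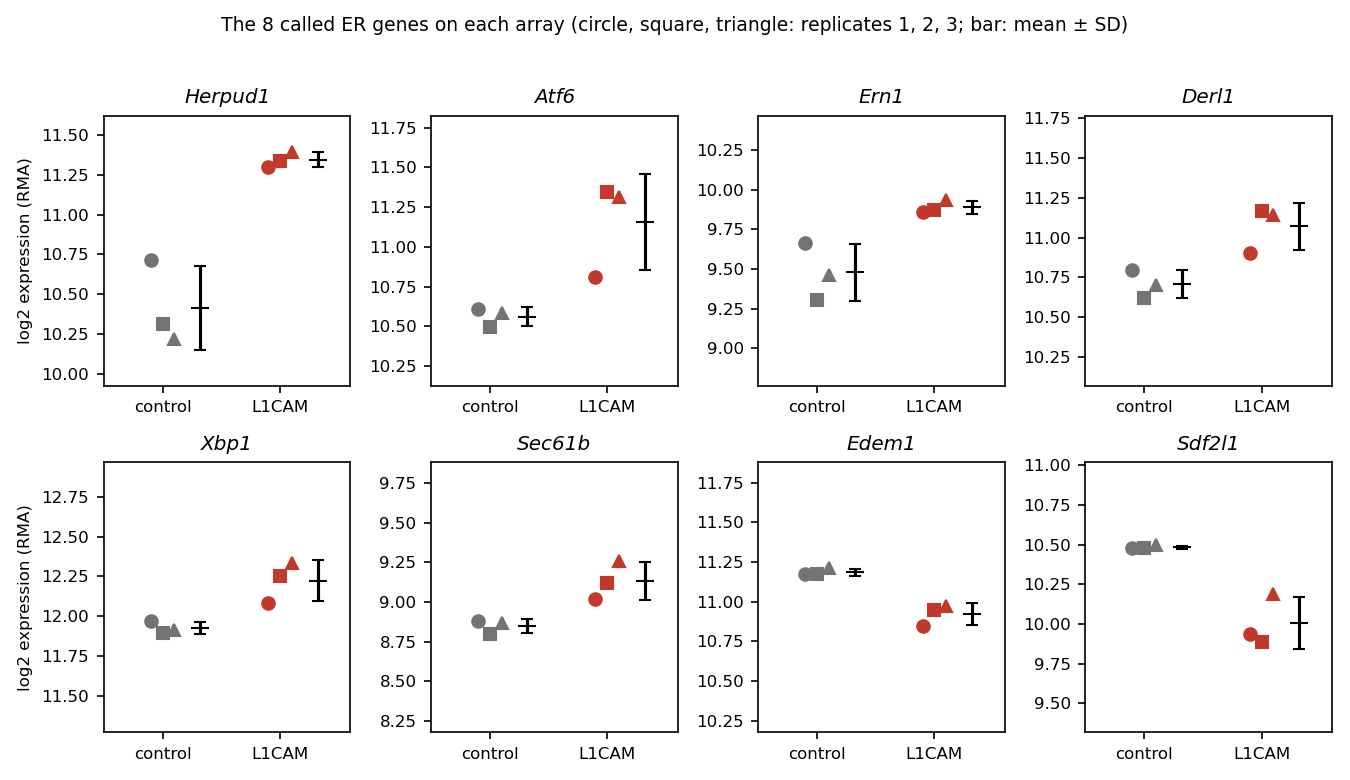
Log2 expression (RMA, vertical axis, the same span in every panel) of the 8 called ER genes on each control (grey) and L1CAM (red) array, with the mean ± SD of 3 arrays. Herpud1 and Ern1 have tight L1CAM arrays and spread controls, whereas in Atf6 the spread lies in the L1CAM group, where replicate 1 reads 10.81 and the others 11.34 and 11.32.

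Of the 4 genes that sense ER stress or pass it on, 3 rose, and all 4 had groups that did not overlap. Of all genes 6.85% were called higher and 34.6% had groups that did not overlap. With all probe sets or an ordinary linear model, 0 of these 4 genes were called higher. Atf6 read 10.61, 10.49 and 10.58 on the control arrays and 10.81, 11.34 and 11.32 on the L1CAM arrays. It was the second largest rise, at 0.60 (SE 0.14), or 1.51-fold (95% interval 1.21 to 1.88), with a limma adjusted p of 0.0272. L1CAM replicate 1 lay 0.25 above the control mean and replicates 2 and 3 lay 0.78 and 0.76 above it. Without replicate 1 the difference was 0.77 (limma adjusted p = 7.88e-05). The call was lost when any other array was left out, and the adjusted p reached 0.150 among the alternatives.

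Ern1, the gene of IRE1, read 9.67, 9.30 and 9.46 in control cells and 9.86, 9.87 and 9.93 in L1CAM cells. The L1CAM arrays were close together and the lowest lay 0.19 above the highest control array. This amounted to 0.41 (SE 0.09), or 1.33-fold (limma adjusted p = 0.0245, 0.00625 to 0.125 over the alternatives). Xbp1, whose RNA IRE1 splices, read 11.97, 11.89 and 11.91 against 12.08, 12.25 and 12.33, a difference of 0.30 (SE 0.07), or 1.23-fold (limma adjusted p = 0.0346, 0.00280 to 0.125 over the alternatives). Without L1CAM replicate 1 both stayed called. Leaving out replicate 2 or 3 of either group ended both calls, and leaving out control replicate 1 ended that of Xbp1. The array reports 1 value for Xbp1, and spliced and unspliced RNA were not told apart here.

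Eif2ak3, the gene of PERK, lay on the other side. It read 9.83, 9.79 and 9.79 in control cells and 9.65, 9.63 and 9.64 in L1CAM cells. Both groups were tight and did not overlap, and the difference of -0.16 (SE 0.05, 95% interval -0.28 to -0.05) had a limma adjusted p of 0.0660, just outside the threshold. It was called lower in 3 of 15 alternatives: under array weights, once dim probe sets were left out and, as the only one of the 32 genes, in an ordinary linear model.

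The translocon threads new proteins into the ER. Sec61b, a subunit of its channel, read 8.88, 8.80 and 8.87 in control cells and 9.02, 9.12 and 9.26 in L1CAM cells (difference 0.29, SE 0.07, limma adjusted p = 0.0360). This probe set, the brightest of 3 annotated to Sec61b, is numbered among probe sets of chromosome 13, while the gene lies on chromosome 4, and whether it reads a copy elsewhere was not tested. The probe set numbered among those of chromosome 4 gave 0.25 (SE 0.11) and was not called over all probe sets (limma adjusted p = 0.227). Adjusted over all probe sets, the brightest probe set was not called either (limma adjusted p = 0.0818). With the mean of the 3 probe sets the call was lost, as it was when any array but L1CAM replicate 1 was left out (adjusted p from 0.00457 to 0.134 over the alternatives). Ssr1, a subunit of the complex that assists the channel, differed by 0.08 (95% interval -0.05 to 0.21).

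Replicate 1 was the lowest of the 3 L1CAM arrays in 23 of the 32 genes, against 42.3% of all genes. In Hspa5, Hyou1, P4hb, Dnajb9, Derl2 and Derl3 it lay within the range of the controls while replicates 2 and 3 lay above that range. That layout was seen in 6.76% of all genes, and the opposite layout, with replicates 2 and 3 below, in 0 of the 32 genes and 4.37% of all genes. Over the 32 genes the mean difference from the control mean was -0.01 in L1CAM replicate 1, 0.08 in replicate 2 and 0.14 in replicate 3, with 0.03, -0.01 and -0.02 on the control arrays. Over the 4 sensor and XBP1 genes it was 0.16, 0.33 and 0.36. Without L1CAM replicate 1, 10 of the 32 genes were called higher and 3 lower, in a fit that called 12.0% of all genes higher and 12.9% lower. All 8 genes called with that array were among them. The further genes were Hspa5, Hyou1, Dnajc10 and Derl2, higher, and Dnajc3, lower. The part of that array's lower rise in ATF4 targets and smaller fall in proliferation genes in these differences was not tested.

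**Figure D3:**
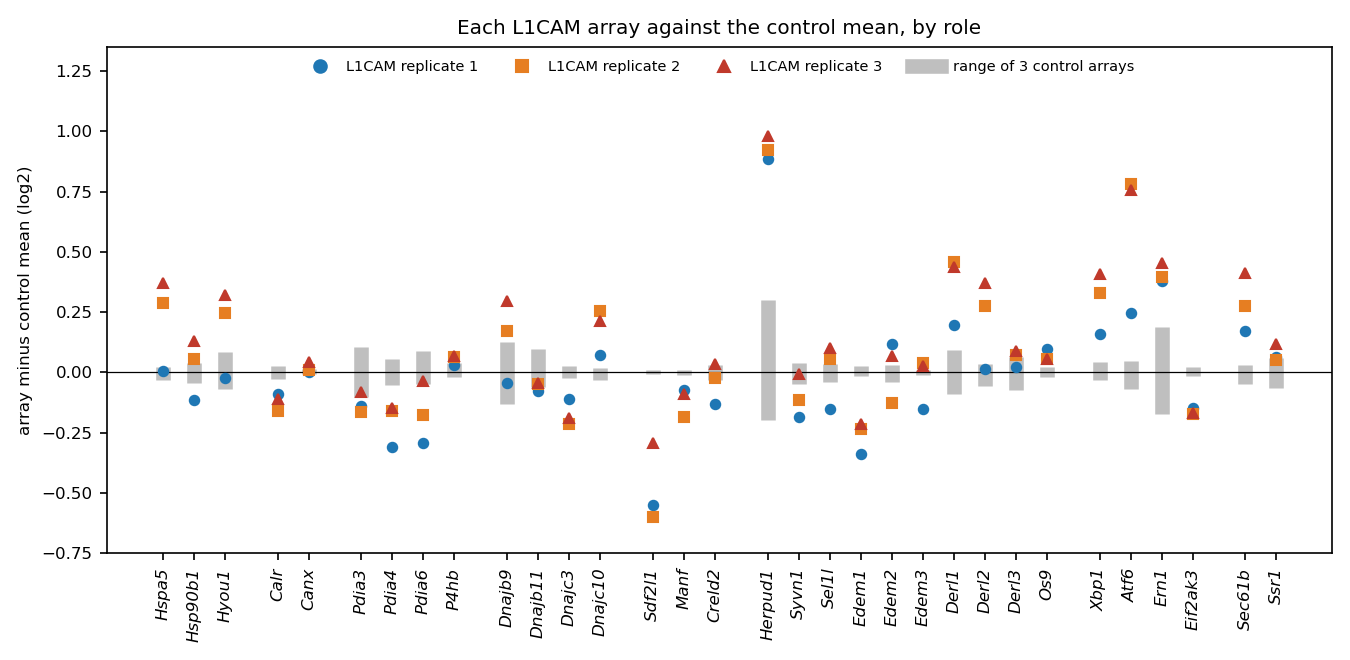
Each L1CAM array minus the mean of the 3 control arrays (log2, vertical axis) for the 32 ER genes, by role, with the range of the control arrays as a grey bar. Herpud1, Ern1 and Eif2ak3 have all 3 L1CAM arrays close together, while in Hspa5, Hyou1, Derl2 and Atf6 replicate 1 (circles) lies below replicates 2 and 3.

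None of the genes with the ERSE sites shown above passed the test. Of the 9 genes with ERSE, 0 were called in the limma fit (2 at an unadjusted p under 0.05), with differences from -0.17 in Dnajc3 to 0.22 in Hspa5 and a median of -0.04. Of the 19 genes with a window but without ERSE, 6 were called (10 at an unadjusted p under 0.05), with a median difference of 0.05. Among these 6, Sdf2l1 and Edem1 fell and the others rose. The 4 genes without a window were Atf6 and Derl1, both called higher, and Hyou1 and Manf, not called. Of all genes tested 15.0% were called. Herpud1, with ERSE-II and the ATF4 element, had the largest rise, and Dnajb11, with ERSE-II just after its start, differed by -0.06. These counts are descriptions of a small set, and the difference between them was not tested.

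The targets of ATF4 and its partner CHOP stood far from the ER genes in size. Of 25 measured targets, 21 rose and 0 fell, with a median difference of 1.01, against 0.02 for the 32 ER genes and for all genes. Called higher were 84.0%, against 6.85% of all genes, and 8.19% of all genes were called lower. The targets are a textbook list that was chosen with earlier results of these data known, so these shares are a description. Trib3, a pseudokinase that inhibits ATF4 and CHOP in turn, rose by 2.61 (SE 0.25), Aldh1l2, a mitochondrial folate enzyme, by 2.58 (SE 0.41) and Chac1, a glutathione-degrading enzyme, by 2.10 (SE 0.24), with limma adjusted p-values of 0.00112, 0.00742 and 0.00207. In all 21 every L1CAM array lay above every control array, against 18.6% of all genes. The 21 were picked by their call in the same arrays, so this layout adds no support. At an unadjusted p under 0.05 there were 22 higher and 2 lower, and an ordinary linear model called 7 higher and 0 lower. Averaged over the 25 targets, L1CAM replicates 1, 2 and 3 exceeded the mean of the controls by 0.85, 1.31 and 1.29. The same average on the control arrays was 0.23, -0.13 and -0.10, so control replicate 1 was the highest. It was also the highest control in each of the 6 ER genes called higher, Herpud1 among them, and in the mean over the 32 ER genes. The share of all genes with that layout was not counted, and a link between the ER genes and the ATF4 targets was not tested. Promoter windows were found for 21 of the 25 targets. The ATF4 element was in 7 of these windows, all 7 of genes that rose, and ERSE and ERSE-II were in 0.

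The other ER lists had medians between 0.0015 and 0.04. Of 28 further folding and oxidation genes 4 rose and 5 fell, or 32.1% called against 15.0% of all genes (14.3% against 6.85% higher, 17.9% against 8.19% lower), with a median difference of 0.02. Ero1a, the oxidase that recharges the disulfide isomerases and a known CHOP target, rose by 0.65 (SE 0.17, limma adjusted p = 0.0403). It read 10.97, 10.80 and 10.80 in control cells and 11.07, 11.71 and 11.74 in L1CAM cells, so replicate 1 again lay nearest the controls. Txndc5, a disulfide isomerase of endothelial cells, rose by 0.57 (SE 0.08, limma adjusted p = 0.00504), and Pdia5 rose by 0.43 (SE 0.10, limma adjusted p = 0.0252). The falls were led by Fkbp14, a prolyl isomerase that acts on collagen (-0.54, SE 0.08, limma adjusted p = 0.00673), Prdx4, an ER peroxiredoxin (-0.40, SE 0.08, limma adjusted p = 0.0167), and Uggt2, a relative of the glucosyltransferase that returns unfolded glycoproteins to the lectin chaperones (-0.40, SE 0.05, limma adjusted p = 0.00331). Txndc5, Fkbp14 and Uggt2 stayed called whichever array was left out. Ero1a and Pdia5 were called in 1 of the 6 such fits and Prdx4 in 2.

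Of 24 further ERAD genes 3 rose and 0 fell, or 12.5% called (6 higher and 1 lower at an unadjusted p under 0.05, and 0 called in an ordinary linear model). They were Selenos, a selenoprotein of the ERAD complex (0.36, SE 0.08, limma adjusted p = 0.0191), Faf2, which recruits the VCP segregase to the ER (0.31, SE 0.07, limma adjusted p = 0.0261), and Erlin2 (0.21, SE 0.06, limma adjusted p = 0.0462). Their calls held in 2, 1 and 0 of the 6 fits that left out an array. Of 23 translocon, signal peptidase and glycosylation genes 1 rose and 1 fell, or 8.7% called against 15.0% of all genes. At an unadjusted p under 0.05 the limma fit gave 6 higher and 1 lower, and an ordinary linear model called 0. Spcs3, a signal peptidase subunit, rose by 0.44 (SE 0.06, limma adjusted p = 0.00514) and Rpn1, a subunit of the oligosaccharyltransferase, fell by 0.27 (SE 0.07, limma adjusted p = 0.0427). Of 19 further signalling genes 3 rose and 0 fell, or 15.8% called (5 higher and 2 lower at an unadjusted p under 0.05, and 1 higher in an ordinary linear model). Map3k5, the kinase ASK1 that acts below IRE1, rose by 0.45 (SE 0.07, limma adjusted p = 0.00514), Wfs1, an ER membrane protein known to restrain ATF6, by 0.38 (SE 0.09, limma adjusted p = 0.0261), and Atf6b, the close relative of Atf6, by 0.22 (SE 0.05, limma adjusted p = 0.0277). Spcs3 and Map3k5 stayed called whichever array was left out. Over these 94 genes 11 rose and 6 fell, or 18.1% called against 15.0% of all genes, and the median difference was 0.03.

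**Figure D4:**
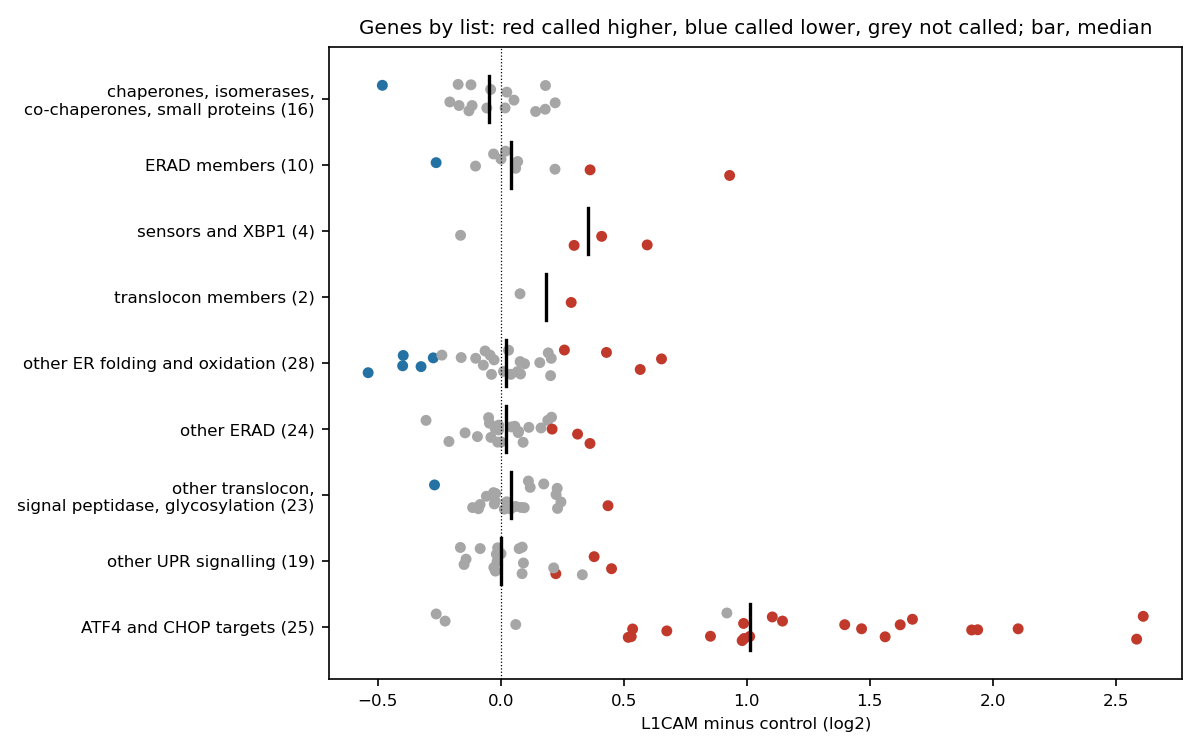
L1CAM minus control differences (log2, horizontal axis) of the ER genes by role and of 5 further lists, 1 point per gene. The 16 chaperones, isomerases, co-chaperones and small proteins share 1 row. Bars are medians, and the number of genes is in parentheses. The ATF4 and CHOP targets have their median at 1.01, the 4 sensor and XBP1 genes at 0.35 and the translocon genes at 0.18. The row of 16 genes has its median at -0.05, and the other ER lists lie between 0.0015 and 0.04. Not drawn separately, the medians within that row are 0.18 for lumenal chaperones, 0.04 for co-chaperones and -0.05 for lectin chaperones. They are -0.15 for disulfide isomerases and -0.12 for small UPR-induced proteins.

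Most single calls rested on having every array other than L1CAM replicate 1. Of the 8 called genes, Herpud1 kept its call in 14 of 15 alternative fits, Sdf2l1 in 12, Ern1 in 9, Atf6 in 8, Derl1, Xbp1 and Edem1 in 7 each and Sec61b in 6. Leaving out replicate 1, 2 or 3 of the controls gave 2, 1 and 1 genes higher and 1, 0 and 0 lower, and leaving out L1CAM replicate 2 or 3 gave 1 higher and 1 lower in each case. The share of all genes called fell in these fits too, with 1033 to 1809 of 19938 genes called, against 2999 with all arrays. Without L1CAM replicate 1, 4952 genes were called, with 10 ER genes higher and 3 lower. All 8 called genes were kept in that fit. The 8 called genes kept their direction in every alternative fit.

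**Figure D5:**
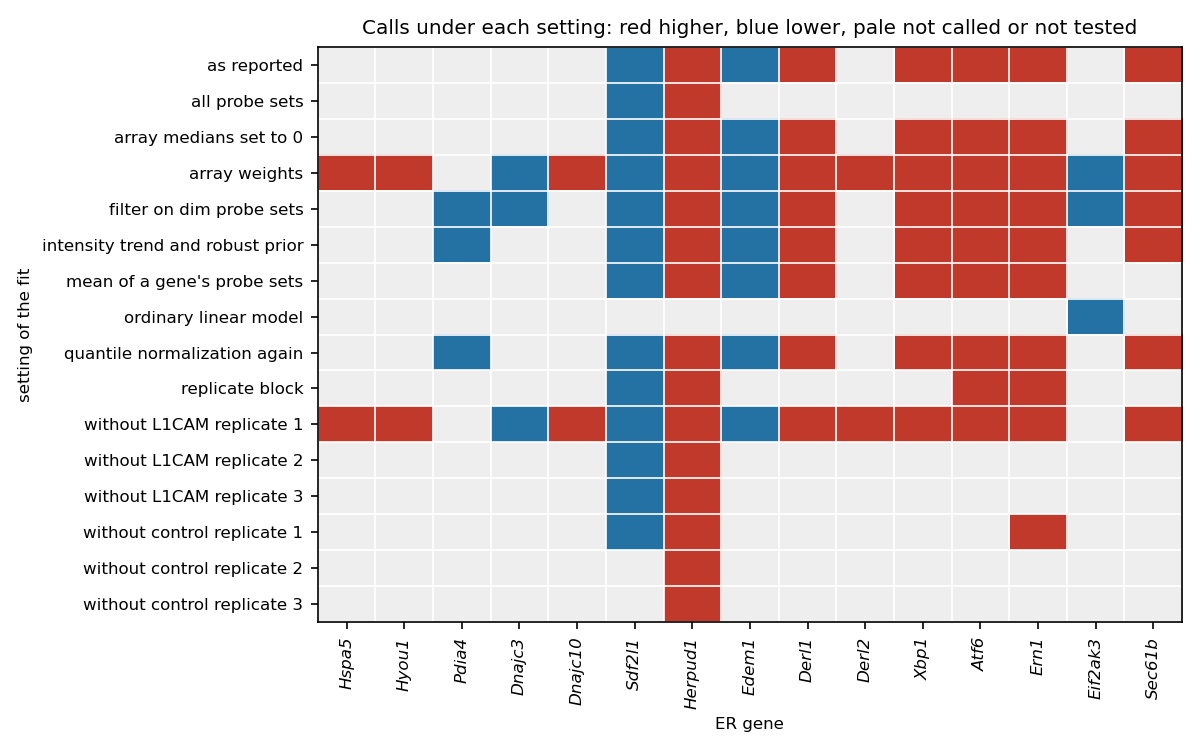
Calls of the 15 ER genes called under at least 1 of 16 settings (rows), with red for higher, blue for lower and pale for not called or not tested. Only Herpud1 is red in all 6 fits that leave out an array, and the row without L1CAM replicate 1 adds Hspa5, Hyou1, Dnajc10 and Derl2 in red and Dnajc3 in blue.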

How the data were processed

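The values of the 6 arrays are log2 expression per probe set as the authors deposited them. Per the submitters' processing notes, they come from RMA, run in version 1.1 of Affymetrix Expression Console. RMA subtracts background, normalizes between arrays and summarises probes, so low values are compressed and small differences are kept. The sources used here give no other settings and no genome build. No detection calls were used, and the number of arrays limits the precision.

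Symbols came from the platform annotation. Of 35512 probe sets 21789 had 1 symbol, 1621 several and 12102 none listed. A match by Entrez identifier to RefSeq genes of GRCm38.p6 changed 0 symbols. The brightest probe set over the 6 arrays was kept for each of 19938 genes (999 had several). Of the 32 ER genes 3 had several.

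The groups were compared in limma 3.58.1 (lmFit, then eBayes; R 4.3.3), two-sided, with group as the only term and Benjamini-Hochberg adjustment over all genes at 0.05. Intervals and SEs are moderated, and folds are 2 to the power of the log2 difference. On simulated data over 19938 genes, 50 genes were given each size of log2 change. The fit called 68% of genes at a change of 0.5, 90% at 1 and 100% at 2 or 4, with 9 false calls. The simulated noise was normal, with the same spread in both groups. The real data had far more called genes (2999) and an L1CAM replicate that stood apart, so these rates may not hold for them. Promoter motifs were searched and figures drawn in Python 3.11.15 with pandas 2.3.3 and matplotlib 3.10.9.

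The ER genes, the further lists and the cell type markers were chosen with earlier results of these data known. All 32 genes are named, with the value on each array for called genes, the sensors and the highest and lowest levels. From each further list up to 3 called genes per direction with the largest difference are named (the 2 with the smallest p where none was called), and of the markers Cdh5, Pecam1, Kdr, Tek and Vwf. Array values of other ER genes were added after they were seen. Other symbols were matched through RefSeq synonyms. Protein sequences were not analysed here. The alternatives were each array left out in turn, a replicate block, a further quantile normalization, centring of array medians, dropping dim genes (kept if over the array's median on 3 or more arrays), averaging probe sets per gene, testing every probe set, an intensity trend with a robust prior, an ordinary linear model and array weights. The count of ATF4 targets under these was added after seeing the data.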

Additional observations from a re-analysis of the deposited data

How the results depend on the processing

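Over all genes the number called was 2999, and 1945 with all probe sets, 5191 with array weights, 581 with an ordinary linear model and 1033 to 4952 with 1 array left out. Of the 32 ER genes 6 were called higher, and 1 with all probe sets, 10 with array weights, 0 with an ordinary linear model (7 of 25 ATF4 targets in that model, against 21) and 1 to 10 with 1 array left out. Called lower were 2, and 1 with all probe sets, 4 with array weights, 5 with the filter on dim probe sets, 1 with an ordinary linear model and 0 to 3 with 1 array left out. The causes of these changes were not tested, beyond the fewer arrays or more probe sets that some settings hold by construction. Direction turned only in ER genes that were not called and lay near 0. Sel1l became -0.0012 with array medians set to 0 and -0.0096 with quantile normalization again, and ran from -0.0488 to 0.078 with 1 array left out, below 0 without L1CAM replicate 2, L1CAM replicate 3 or control replicate 2. Edem3 became 0.0125 with array weights and ran from -0.0627 to 0.0321 with 1 array left out, above 0 without L1CAM replicate 1. Edem2 ran from -0.0306 to 0.0936, below 0 without L1CAM replicate 1, L1CAM replicate 3 or control replicate 2. Hsp90b1 ran from -0.028 to 0.0941, below 0 without L1CAM replicate 3, and Creld2 from -0.0776 to 0.0054, above 0 without L1CAM replicate 1. The median difference of the 32 genes, 0.0223, ran from 0.0007 without L1CAM replicate 3 to 0.0615 without L1CAM replicate 1 with 1 array left out, and was 0.0629 with array weights. L1cam was called in all 15 alternatives.

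Replicate numbers are shared by the groups, but same-numbered arrays did not deviate together across genes (correlations of -0.10, -0.10 and -0.03 for numbers 1, 2 and 3), so the numbers were not taken as pairs. With the replicate block 2067 genes were called, 3 ER genes were called higher (Herpud1, Atf6 and Ern1) and 1 lower (Sdf2l1).

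Signal near background limits Derl3 among the 32 genes.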
